A study of Mus musculus with 8 samples.

Results

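The immediate early response genes are switched on within minutes of a stimulus without new protein synthesis. The 10 followed here, Fos, Fosb, Jun, Junb, Egr1, Atf3, Ier2, Dusp1, Zfp36 and Nr4a1, form a set chosen by name and were matched by gene symbol. All 10 were among the 18835 genes with values. They were read in heart RNA of 8 mice (BALB/cAJcl, male, aged 10 weeks) that had been immunized with cardiac myosin to induce autoimmune myocarditis. The VEGF-C group (4 mice) was injected intraperitoneally with 1 µg per day of VEGF-C C156S, a variant of the growth factor that drives lymphatic vessel growth, on days 7 to 10 after immunization. The PBS group, 4 mice with the same immunization, had received the vehicle on the same days, and all hearts were taken at week 3, after the injections had ended. Both groups carry the disease, and no unimmunized heart was analysed here. The libraries held 53679737 to 76803952 recovered reads, and no member had fewer than 40 reads in any library. The labels give heart as the tissue although the series title speaks of lymphatic endothelial cells; all 8 cardiomyocyte markers examined were read, at a summed 2719762 to 4061639 normalized counts per library. In bulk tissue, fewer cells that express a gene and less RNA per cell cannot be told apart. The labels do not say how the samples relate beyond their separate animal numbers, so p-values measure the spread between these samples.

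Most of these genes encode transcription factors. FOS and FOSB pair with JUN or JUNB to form AP-1, which binds DNA through paired leucine zippers, and ATF3 can pair with JUN proteins. EGR1 is a zinc finger factor and NR4A1 an orphan nuclear receptor. Their transcription follows MAP kinase, calcium and cAMP signals through serum response factor and CREB, and the mRNAs are short-lived. DUSP1, a phosphatase that switches MAP kinases off, and ZFP36 (tristetraprolin), which brings AU-rich mRNAs to decay, close the loop. In heart tissue they respond to stretch, ischemia, adrenergic signals and inflammation, and to the handling of tissue.

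All 10 genes had lower mean values in VEGF-C hearts than in PBS hearts, but only Junb, 1.91-fold lower, and Nr4a1, 2.57-fold lower, passed an adjusted p of 0.05 in limma, a linear model test with moderated variances fitted over all genes. Against the 2 of 10 members called, 15.7% of all genes tested were called in either direction with 8.61% lower and 7.05% higher. The members' median log2 fold change was -0.79, against 0.0013 over all genes, and 49.8% of all genes had a negative fold change. The highest heart exceeded the lowest 1.87-fold to 7.63-fold in PBS, depending on the gene, and 1.14-fold to 3.23-fold in VEGF-C. PBS replicate 2 was the highest of the 8 libraries in 9 of 10 members, and PBS replicate 4 lay, averaged over the members, at the level of the VEGF-C hearts. Only Junb separated the groups without overlap, 1 of 10 members, against 23.0% of all genes without overlap in either direction and 11.6% with VEGF-C below PBS. A log2 fold change of -1 or below was reached by 4 members (Fos, Fosb, Egr1 and Nr4a1) and by 5.2% of all genes. Without PBS replicate 4 the number of members called was 7 (Fos, Fosb, Junb, Egr1, Atf3, Ier2 and Nr4a1), while 11.5% of all genes were called in that fit. By these same values it was the lowest PBS heart on average, so leaving it out raised the members' PBS mean by construction. When PBS replicate 3, or any of VEGF-C replicates 1, 3 and 4, was left out instead, Junb alone was called. That was 1 of 10, where 8.94% to 11.2% of all genes were called. Without PBS replicate 2, the highest, Junb and Nr4a1 were called, 2 of 10, where 11.2% of all genes were. The members' median log2 fold change was then -0.61.

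The plot of normalized counts by library shows each of the 10 genes, where a normalized count is a read count divided by the library's size factor.

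**Figure D1:**
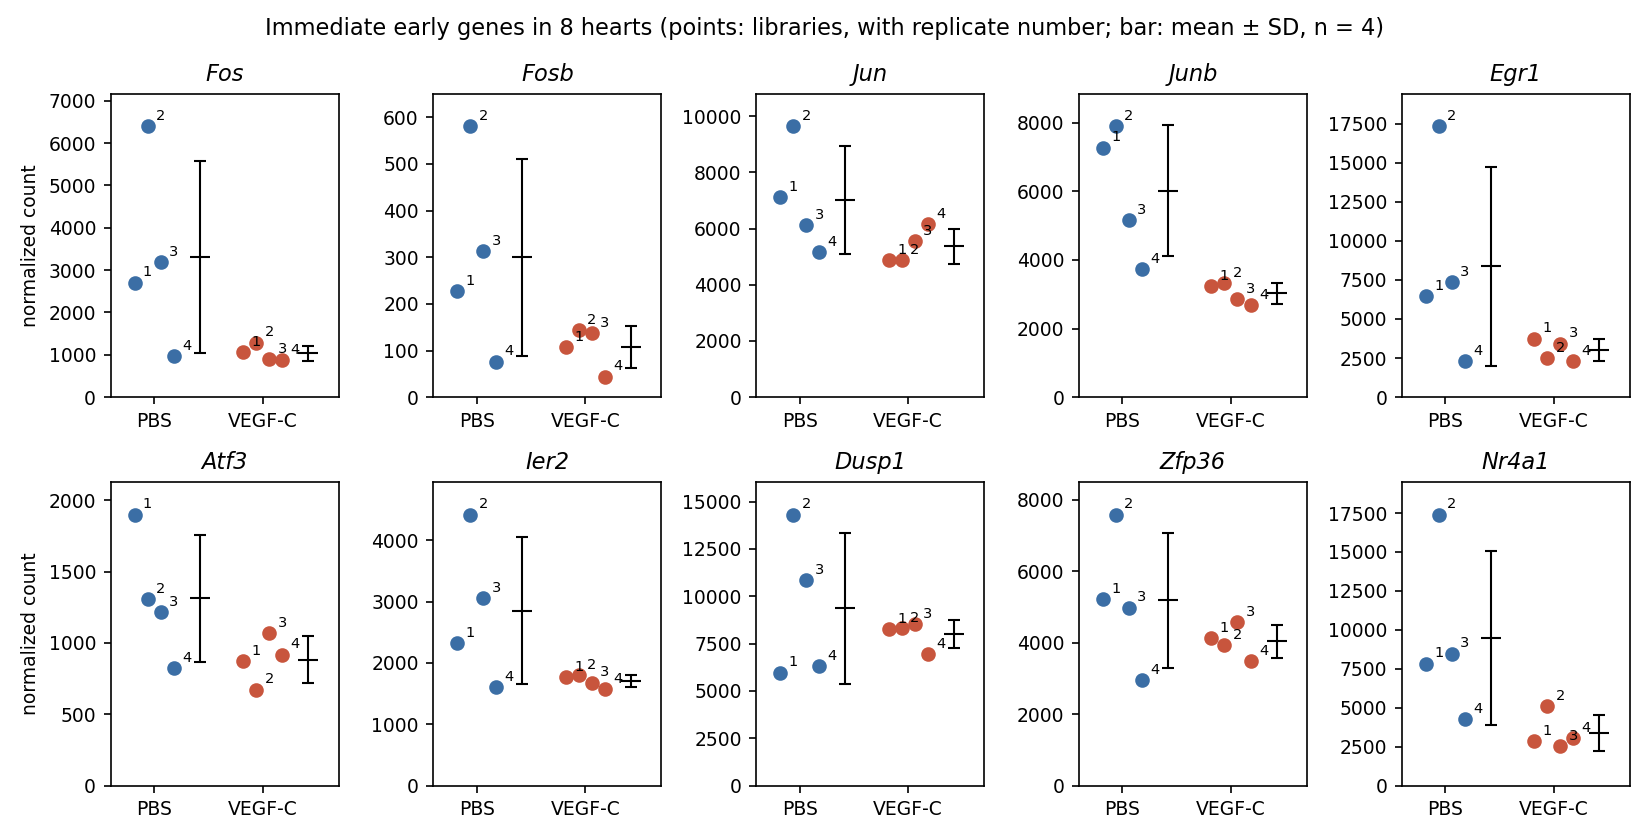
Normalized counts (linear axes from 0) of the 10 immediate early genes in each library of the PBS and VEGF-C groups, with the replicate number beside each point and the mean ± SD of 4 libraries in black. PBS replicate 2 is the highest point in every panel but that of Atf3, and PBS replicate 4 lies above all VEGF-C points only in the panel of Junb.

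The sequences just upstream of 4 of these genes are shown because the genes share a signal-responsive motif and yet differ in their fold change: Nr4a1 and Junb were called, Fos had the largest fold change without a call, and Dusp1 had the smallest. Each line gives, 5′ to 3′ on the strand of the gene, the 250 bases before its start from RefSeq (build GRCm38.p6; the deposited values were made on GRCm39). Capitals mark TGACG, the half-site of the cAMP response element that CREB and ATF proteins bind, or CGTCA, the same letters on the other strand. The windows are chr15:101266596-101266845, plus strand for Nr4a1, chr8:84978749-84978998, minus strand for Junb, chr12:85473640-85473889, plus strand for Fos and chr17:26508473-26508722, minus strand for Dusp1.
Nr4a1: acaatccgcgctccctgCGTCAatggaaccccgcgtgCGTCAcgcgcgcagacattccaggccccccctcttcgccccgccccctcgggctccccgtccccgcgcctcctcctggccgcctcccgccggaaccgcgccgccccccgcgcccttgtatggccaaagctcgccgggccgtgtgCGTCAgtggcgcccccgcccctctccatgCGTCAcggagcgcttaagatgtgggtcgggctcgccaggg
Junb: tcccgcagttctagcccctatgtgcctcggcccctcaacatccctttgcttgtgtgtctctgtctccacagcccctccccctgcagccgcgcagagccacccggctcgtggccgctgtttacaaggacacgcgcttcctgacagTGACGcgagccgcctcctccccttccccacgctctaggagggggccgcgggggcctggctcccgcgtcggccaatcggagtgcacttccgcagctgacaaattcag
Fos: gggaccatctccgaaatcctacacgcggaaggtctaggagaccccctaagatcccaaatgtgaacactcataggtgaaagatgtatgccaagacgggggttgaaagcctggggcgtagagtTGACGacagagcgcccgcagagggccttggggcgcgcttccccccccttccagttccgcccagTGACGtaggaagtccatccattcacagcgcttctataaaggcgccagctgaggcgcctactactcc
Dusp1: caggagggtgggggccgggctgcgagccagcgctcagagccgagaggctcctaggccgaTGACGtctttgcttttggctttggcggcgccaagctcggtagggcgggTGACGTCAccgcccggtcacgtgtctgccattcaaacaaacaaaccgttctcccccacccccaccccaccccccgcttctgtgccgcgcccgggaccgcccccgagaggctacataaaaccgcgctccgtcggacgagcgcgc

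Windows were found for 8 members but not for Egr1 and Ier2, which were therefore not searched. Both strands were searched. The half-site TGACG was present in 6 of the 8 (Fos, Fosb, Junb, Atf3, Dusp1 and Nr4a1), and in 17.8% of all 32851 windows of this length. Nr4a1 had 4 half-sites, 233, 213, 69 and 40 bases upstream at their first base. Dusp1 held 3, 2 of which overlap as the full palindrome TGACGTCA, 143 bases upstream. That palindrome was in 1.55% of all windows and in no other of the 8 members searched. The EGR motif GCGNGGGCG was present in Fosb, Zfp36 and Nr4a1 and in 4.7% of all windows. The CArG box of serum response factor was present in Zfp36, 58 bases upstream, and in 1.47% of all windows. The AP-1 motif TGANTCA was in none of the 8 windows and in 6.75% of all. These are matches of letters in short windows, and the 4 genes printed were chosen for holding the half-site.

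Junb (ENSMUSG00000052837), an AP-1 subunit of the JUN family, had 7272, 7904, 5167 and 3739 normalized counts in PBS replicates 1 to 4 and 3242, 3333, 2852 and 2677 in VEGF-C replicates 1 to 4. All 4 VEGF-C hearts lay below all 4 PBS hearts. The group means were 6020 ± 1919 and 3026 ± 313 (SD, n = 4), and the log2 fold change was -0.94 ± 0.20 (SE; limma adjusted p = 0.0148). Junb was called in all 18 alternative fits, with log2 fold changes between -1.15 and -0.79.

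Fos (ENSMUSG00000021250), the prototype of the FOS family, had 2706, 6402, 3187 and 971 normalized counts in the PBS hearts and 1058, 1286, 905 and 879 in the VEGF-C hearts. PBS replicates 1 to 3 were above every VEGF-C heart and PBS replicate 4 was among them. The means were 3316 ± 2267 and 1032 ± 187 (SD, n = 4). The log2 fold change of -1.40 ± 0.44 (SE) was the largest of the 10 and missed the threshold (limma adjusted p = 0.0567). Without PBS replicate 4 it was -1.90 ± 0.27 with an adjusted p of 0.00445, and with scaling by library totals the adjusted p was 0.0328. Without PBS replicate 2 the log2 fold change was -0.99 ± 0.35 (limma adjusted p = 0.0993).

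Fosb (ENSMUSG00000003545), the close relative of Fos, had 228, 581, 314 and 76.2 normalized counts in PBS and 107, 143, 138 and 44.2 in VEGF-C. The order of the PBS hearts was that of Fos, and the groups overlapped through PBS replicate 4. The log2 fold change was -1.24 ± 0.55 (SE; limma adjusted p = 0.152), with a 95% interval from -2.47 to -0.01. It was called only without PBS replicate 4 (-1.77, adjusted p = 0.0307), and without PBS replicate 2 it was -0.81 ± 0.51 (adjusted p = 0.326). Fosb was the least abundant member, above 28.7% of all genes by mean level.

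Jun (ENSMUSG00000052684), the main partner of FOS, had 7127, 9647, 6115 and 5162 normalized counts in PBS and 4874, 4871, 5557 and 6152 in VEGF-C. The groups overlapped, with VEGF-C replicate 4 above 2 of the PBS hearts. The log2 fold change was -0.35 ± 0.17 (SE; limma adjusted p = 0.175) and passed only with scaling by library totals (-0.55, adjusted p = 0.0483). Without PBS replicate 2 it was -0.19 ± 0.13 (adjusted p = 0.353).

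Nr4a1 (ENSMUSG00000023034), which encodes a nuclear receptor induced in myeloid cells, lymphocytes and muscle, had 7839, 17404, 8483 and 4274 normalized counts in PBS and 2878, 5113, 2526 and 3054 in VEGF-C. VEGF-C replicate 2 lay above PBS replicate 4, and the other 3 VEGF-C hearts lay below every PBS heart. The means were 9500 ± 5585 and 3393 ± 1168 (SD, n = 4), with a log2 fold change of -1.36 ± 0.36 (SE; limma adjusted p = 0.0317). The call was lost in the 4 fits that left out PBS replicate 3 or one of VEGF-C replicates 1, 3 and 4 (adjusted p up to 0.0854), with robust variances (0.0911) and without a variance trend (0.0677).

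Egr1 (ENSMUSG00000038418), a serum- and stress-induced zinc finger factor, had 6457, 17341, 7362 and 2324 normalized counts in PBS and 3748, 2511, 3424 and 2295 in VEGF-C. Its highest PBS heart was 7.46-fold above its lowest, against 1.63-fold in VEGF-C. The log2 fold change was -1.17 ± 0.47 (SE; limma adjusted p = 0.118), and -1.68 ± 0.32 without PBS replicate 4 (adjusted p = 0.013). Without PBS replicate 2 it was -0.71 ± 0.36 (adjusted p = 0.225).

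Ier2 (ENSMUSG00000053560), which encodes a nuclear protein of the early response, had 2323, 4420, 3052 and 1609 normalized counts in PBS and 1764, 1800, 1678 and 1576 in VEGF-C. The VEGF-C hearts lay within 1.14-fold of each other, and PBS replicate 4 was among them. The log2 fold change was -0.65 ± 0.24 (SE; limma adjusted p = 0.098), and it passed with library totals (0.043) and without PBS replicate 4 (0.0175). Without PBS replicate 2 it was -0.40 ± 0.18 (adjusted p = 0.177). Of the members, Ier2 lay closest to the mean profile of the other 9 over the 8 libraries, with a root-mean-square difference of 0.16 on the log2 scale, and Fosb lay farthest (0.59).

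Atf3 (ENSMUSG00000026628), a stress-induced factor that can repress inflammatory genes, departed from this order. It had 1899, 1309, 1218 and 823 normalized counts in PBS and 874, 673, 1070 and 917 in VEGF-C. PBS replicate 1, not 2, was highest. The log2 fold change was -0.53 ± 0.23 (SE; limma adjusted p = 0.139), and it passed only without PBS replicate 4 (0.0385). It was -0.33 ± 0.19 without PBS replicate 1 (adjusted p = 0.252) and -0.35 with voom quality weights.

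The feedback genes Dusp1 and Zfp36 had the smallest fold changes. Dusp1 (ENSMUSG00000024190) had 5963, 14314, 10837 and 6312 normalized counts in PBS and 8248, 8305, 8538 and 6940 in VEGF-C. PBS replicates 1 and 4 lay below all VEGF-C hearts and PBS replicates 2 and 3 above them. Its log2 fold change of -0.13 ± 0.25 (SE; limma adjusted p = 0.752) had a 95% interval from -0.68 to 0.42, so a fall as large as that of Junb lay outside the interval, and the sign turned without PBS replicate 2 (0.11 ± 0.19). Zfp36 (ENSMUSG00000044786) had 5221, 7586, 4981 and 2952 normalized counts in PBS and 4138, 3936, 4571 and 3490 in VEGF-C. PBS replicate 4 was the lowest of the 8 and the other 3 PBS hearts were the highest. The log2 fold change was -0.29 ± 0.23 (SE; limma adjusted p = 0.412), with no call in any of the 18 alternative fits. For Zfp36 it was -0.08 ± 0.19 without PBS replicate 2, -0.54 ± 0.15 without PBS replicate 4 (adjusted p = 0.0505), -0.48 with library totals and -0.19 with voom quality weights.

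**Figure D2:**
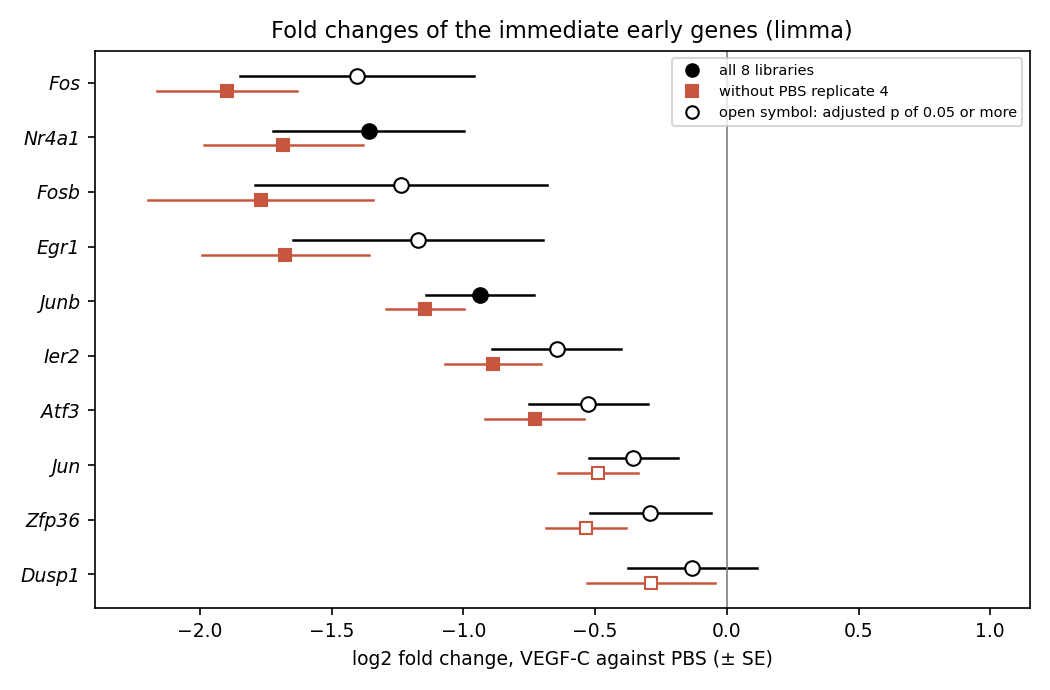
Log2 fold change of each immediate early gene, VEGF-C against PBS (horizontal axis; symbols show the estimate and lines its SE from limma), with all 8 libraries (circles) and without PBS replicate 4 (squares); filled symbols have an adjusted p under 0.05. With all libraries 2 genes are filled, where 15.7% of all genes were called. Without PBS replicate 4 there are 7, where 11.5% of all genes were called. That PBS heart had the lowest mean level of these genes, so leaving it out raised their PBS mean by construction. The larger count is therefore no separate support. Without PBS replicate 2, the highest and not drawn, 2 were called, where 11.2% of all genes were.

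In the authors' deposited table, 6 of the 10 members had an adjusted p under 0.05 (Fos, Junb, Egr1, Atf3, Ier2 and Nr4a1), where 21.7% of 18812 genes with a value did. The deposited log2 fold changes ran from -1.68 for Fos (adjusted p = 0.008) to -0.22 for Dusp1 (0.663), all negative. In that table Junb had an adjusted p of 1.4e-05, Nr4a1 of 0.0168 and Egr1 of 0.0464, and Fosb (0.0873), Jun (0.0906) and Zfp36 (0.228) did not pass.

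Levels between genes were compared as normalized counts per kilobase of merged exons. In PBS hearts Dusp1 (2826 ± 1203), Nr4a1 (2707 ± 1592), Junb (2616 ± 834), Jun (2199 ± 605), Ier2 (1873 ± 789), Egr1 (1867 ± 1420), Zfp36 (1494 ± 547) and Fos (1410 ± 964) formed a series in which no neighbours differed beyond their SD (n = 4). Atf3 (609 ± 206) followed without standing clear of Fos, and Fosb (48.0 ± 33.9) lay far below. In VEGF-C hearts Dusp1 (2419 ± 218) stood above Jun (1682 ± 193), and Jun just above Junb (1315 ± 136), by non-overlapping ranges of mean ± SD. Zfp36 (1163 ± 129) and Ier2 (1120 ± 65.7) came next on this per-kilobase scale. Nr4a1 (967 ± 333), Egr1 (668 ± 156), Fos (439 ± 79.5) and Atf3 (410 ± 76.0) then followed with overlapping neighbours, and Fosb (17.3 ± 7.27) was again last.

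The spread between animals was wider in PBS hearts. The SD of the log2 values was higher in PBS than in VEGF-C for 10 of 10 members, where 54.3% of all genes had the higher SD in PBS. The median SD of the members was 0.61 in PBS and 0.21 in VEGF-C. Over the 8183 genes with a mean log2 value of at least 10 these medians were 0.13 and 0.12. The ratio of the SDs ran from 1.6 for Fosb to 7.21 for Ier2, with a median of 3.38, against a median of 1.17 for those 8183 genes. Some relatives shared this trait, with ratios of 9.30 for Btg2, 4.73 for Egr3 and 2.44 for Egr2. Others did not, with 1.31 for Nr4a3, 0.69 for Ccn2 and 0.35 for Klf10. The members' SDs come from the same hearts, and PBS replicate 2 was highest in 9 of 10, so they are not independent. No test of the difference in spread was made. The highest PBS heart exceeded the lowest 7.63-fold for Fosb, 7.46-fold for Egr1, 6.59-fold for Fos and 4.07-fold for Nr4a1, and 1.87-fold for Jun. Averaged over the members after centring each on its own mean, the log2 level was 0.42, 1.21, 0.50 and -0.51 in PBS replicates 1 to 4 and -0.36, -0.30, -0.33 and -0.62 in VEGF-C replicates 1 to 4. PBS replicate 4 thus lay within the range of the VEGF-C hearts and PBS replicate 2 farthest above it.

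**Figure D3:**
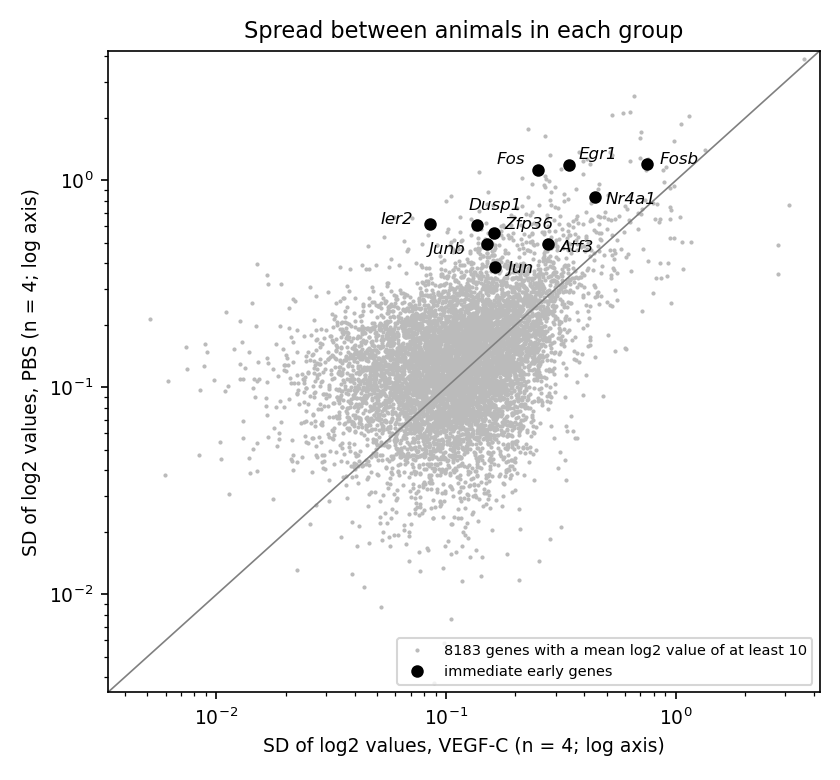
SD of the log2 values over 4 animals in VEGF-C (horizontal, log axis) and PBS (vertical, log axis) for 8183 genes with a mean log2 value of at least 10 (grey) and the 10 immediate early genes (black); the line marks equal SDs. All 10 lie above the line, Ier2 farthest from it.

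Differences between a member and a relative within 1 library do not depend on the size factors, apart from the added constant. They were computed for 8 pairs chosen by name. An exact two-sided permutation test was used, and with 70 ways to split 8 libraries it cannot give a p below 0.0286. Junb minus Jund, its constitutive relative, was 1.52, 1.14, 0.61 and 0.45 in PBS and -0.12, -0.03, -0.22 and -0.53 in VEGF-C (log2 differences). Jun minus Jund was 1.49, 1.43, 0.85 and 0.92 in PBS and 0.47, 0.52, 0.74 and 0.67 in VEGF-C. In both the groups did not overlap (exact permutation p = 0.0286, the smallest possible; Benjamini-Hochberg p over the 8 pairs = 0.114), with mean differences between the groups of -1.16 and -0.57. Jund itself was not called (0.22 ± 0.11, limma adjusted p = 0.216). Both pairs subtract Jund, so they are not separate results, and its positive fold change is part of each difference. Of the 8 pairs 0 passed after adjustment and 2 had an exact permutation p under 0.05, and a call would have needed at least 5 pairs at the smallest p.

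The remaining 6 pairs overlapped between the groups. The subtracted genes Fosl2 (-0.405), Nr4a2 (-0.80) and Nab2 (-0.67) were themselves called lower in limma, so their pairs leave out part of the member's fall. Fos minus Fosl2, another AP-1 subunit, was -1.39, 0.25, -0.74 and -2.52 in PBS and a mean of -2.10 ± 0.10 (SD, n = 4) in VEGF-C (exact permutation p = 0.143). Zfp36 minus Zfp36l1 and Nr4a1 minus Nr4a2 had mean differences of -0.56 and -0.57 (exact permutation p = 0.114 for each). Atf3 minus Atf4 (-0.40, p = 0.229 by the exact permutation test), Egr1 minus its corepressor Nab2 (-0.51, p = 0.457) and Dusp1 minus Dusp6 (-0.13, p = 0.6) were smaller against their spread.

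**Figure D4:**
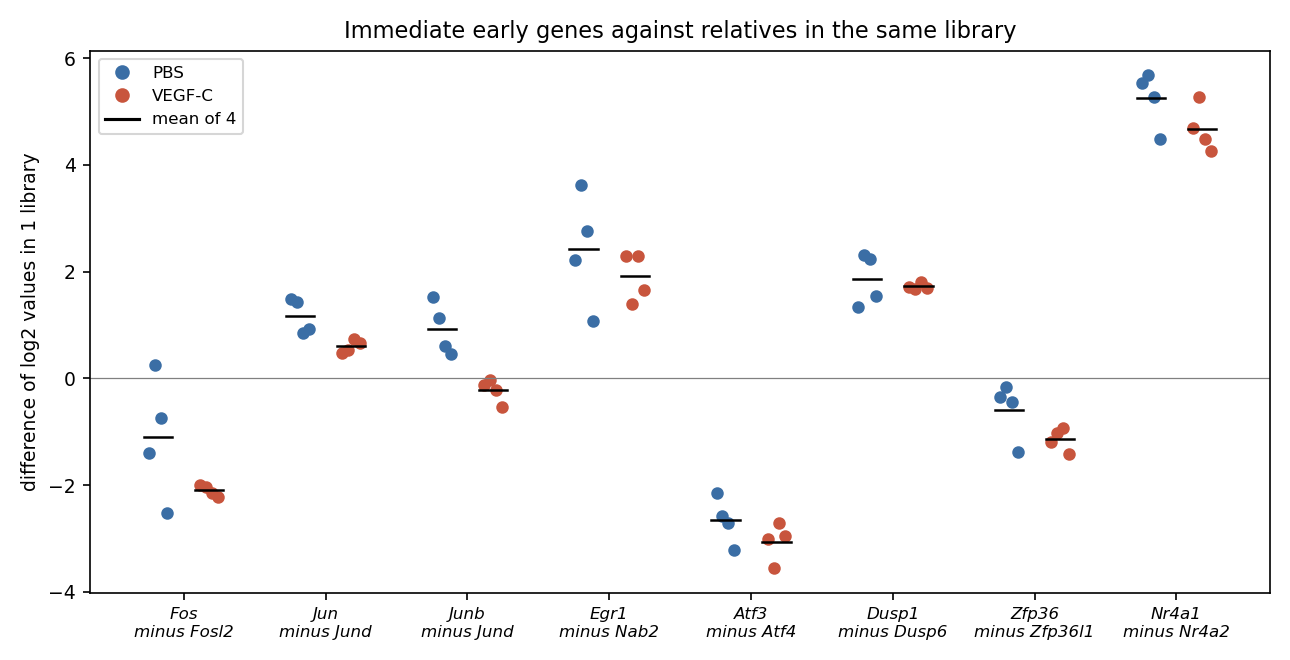
Difference of the log2 values of 2 genes in the same library (vertical axis) for 8 pairs, in 4 PBS libraries (blue) and 4 VEGF-C libraries (red), with the mean as a black line. The groups do not overlap for Jun minus Jund and for Junb minus Jund, and for Fos minus Fosl2 PBS replicate 4 (-2.52) lies below all VEGF-C libraries.

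Of 6 measured relatives in the EGR and NR4A families, corepressors included, 4 were called, all lower. Of all genes 15.7% were called, 8.61% lower. Egr3 had 610, 1015, 333 and 271 normalized counts in PBS and 131, 130, 168 and 128 in VEGF-C, and fell by 1.78 ± 0.35 (SE, log2 scale; limma adjusted p = 0.00935). Egr2 had 901, 696, 359 and 379 in PBS and 180, 203, 280 and 208 in VEGF-C (-1.32 ± 0.28, adjusted p = 0.0141). In both, unlike Egr1, PBS replicate 4 lay above all VEGF-C hearts. Nab2, which binds EGR proteins and represses their targets, fell by 0.67 on the log2 scale (adjusted p = 0.00834) and Nr4a2 fell by 0.80 (0.0409), while Nr4a3 (-0.05) and Nab1 (0.06) were not called. Egr2, Egr3 and Nab2 kept their calls in all 18 alternatives, and Nr4a2 in 10; without a library other than PBS replicate 1 or VEGF-C replicate 4 its adjusted p was above the threshold and up to 0.101. The list's median was -0.73.

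Of 11 other AP-1 genes measured 1 was called, Fosl2, where 15.7% of all genes were. It fell by 0.41 (limma adjusted p = 0.0406). With 1 library left out, its call was kept only without VEGF-C replicate 2. With scaling by library totals 4 of the 11 were called, all lower. In that fit 20.3% of all genes were called, 3572 lower and 243 higher. The median was 0.01. Batf3 (-0.58) and Batf2 (-0.85), dimer partners of JUN proteins in myeloid and lymphoid cells, did not pass (limma adjusted p = 0.062 and 0.0982). Neither was named by rule, and 6 of the 11 genes had positive fold changes, among them Maff (0.25) and Jdp2 (0.23), also not called.

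Of 30 other early response genes 6 were called, 4 lower and 2 higher, where 15.7% of all genes were called. Btg2, an antiproliferative gene, had 11750, 13900, 9072 and 4877 normalized counts in PBS and 4324, 3920, 4374 and 4248 in VEGF-C (-1.13 ± 0.26, limma adjusted p = 0.0178). PBS replicate 2 was highest and PBS replicate 4 lowest of its PBS hearts, with no overlap between the groups. The salt-inducible kinase Sik1 fell by 0.57 (adjusted p = 0.0045), Plk3 by 0.44 (0.0427) and the small GTPase Gem by 0.42 (0.0393); the last 2 were named after their values were seen and kept their calls in 8 and 12 of 18 alternatives. The scaffold gene Homer1 rose by 0.65 (0.0125) and Ccn2, a matricellular growth factor, rose by 0.91 ± 0.26 (0.038), a call kept in 9 of 18 alternatives. Klf2, Klf4, Klf6, Myc, Sgk1, Ier3, Ier5 and Nfkbia, also named after their values were seen, had log2 fold changes between -0.29 and 0.15 and were not called. The list's median was -0.06. The number called was 3 in the fit lacking PBS replicate 2 and in that lacking VEGF-C replicate 3.

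The lists of upstream regulators are described by their counts, to be read against the 15.7% of all genes called. Of 9 genes for serum response factor and its cofactors, Srf (0.46 ± 0.11, limma adjusted p = 0.0218) and its muscle coactivator Myocd (0.61 ± 0.11, 0.00546) were higher. Of 22 MAP kinase pathway genes 4 were called, 3 higher, among them the kinase genes Map2k3 (0.37) and Map2k2 (0.34), and 1 lower, Mapk11 (-0.51). The call of Map2k2 was kept in only 5 of 18 alternatives. Of 15 ATF and CREB genes, Atf6 (0.39) and Crtc3 (0.32) were higher, and Creb1 (0.28, adjusted p = 0.085) was not called. Of 9 other MAP kinase phosphatases, Dusp8 (0.48) and Dusp16 (0.35) were higher. With scaling by library totals, which shifted the all-gene median to -0.19 on the log2 scale, every one of these increases but that of Myocd lost its call. The calls were then 3 lower of 22 MAP kinase genes, 2 lower of 9 phosphatases and 1 lower of 15 ATF and CREB genes. In that fit 20.3% of all genes were called, 3572 lower and 243 higher. The number of MAP kinase genes called was 6 without PBS replicate 1, 2 without PBS replicate 2 and 1 without VEGF-C replicate 3, and that of phosphatases 1 without PBS replicate 2 and 3 without VEGF-C replicate 2. Srf and Crtc3 lost their calls in fits lacking VEGF-C replicate 1 or 3.

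Downstream, among mRNAs known as tristetraprolin targets, 7 of 13 were called, all lower. Of all genes 15.7% were called, 8.61% lower. They were the cytokine genes Tnf, Il1b and Il6, the chemokine genes Cxcl1 and Ccl2, Nfkbiz, a nuclear NF-kB cofactor, and Plaur, the urokinase receptor. Tnf had 365, 367, 200 and 230 normalized counts in PBS and 129, 96.1, 96.3 and 95.04 in VEGF-C, and fell by 1.41 ± 0.22 (SE, log2 scale; limma adjusted p = 0.00375). Cxcl1 fell by 1.33, Il1b by 1.22 and Nfkbiz by 0.47 (adjusted p = 0.0212, 0.0303 and 0.00896). Il6 fell by 1.49, Ccl2 by 0.80 and Plaur by 0.52, and were named after their values were seen. Vegfa (0.27) and Ier3 (0.06) were not called. Tnf and Nfkbiz kept their calls in all 18 alternatives, Cxcl1 and Il1b in 13, Il6 in 11, and Ccl2 and Plaur in 10. In all, the number called was 3 to 6 when 1 library was left out: 3 in the fits lacking PBS replicate 2 or one of VEGF-C replicates 1, 2 and 3, and 4 in that lacking PBS replicate 4. Of 12 genes for ZFP36 relatives and deadenylation only Elavl1, a stabilizer of AU-rich mRNAs, was called (0.32), and with library totals it was not, while 1 other was called as lower. Zfp36l1 (0.27 ± 0.09, adjusted p = 0.0773) and Zfp36l2 (0.24) were not. The number called was 2 without PBS replicate 2, where Zfp36l1 passed (0.0415), and 2 without PBS replicate 4.

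Of 11 inducible heat shock genes 2 were called, where 15.7% of all genes were. They were Bag3 (0.73 ± 0.09, limma adjusted p = 0.000868) and Hspa8 (0.53 ± 0.11, 0.0127), both higher. Hspa8 lost its call with library totals (0.0554). Hspa1a (-0.53 ± 0.38) and Hspa1b (-0.24 ± 0.37), near-identical copies whose reads may be split, were not called.

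**Figure D5:**
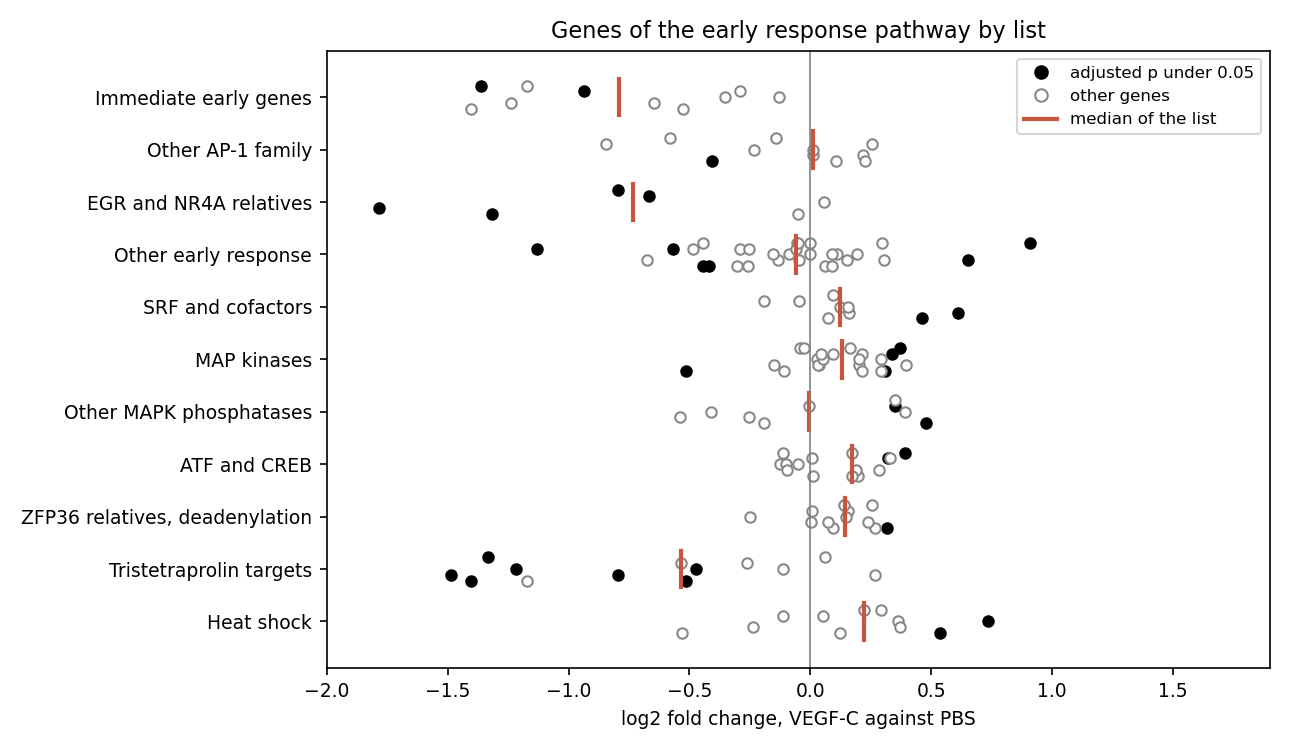
Log2 fold change, VEGF-C against PBS (horizontal axis), of the immediate early genes and of 10 lists of related genes; each point is a gene, filled where the limma adjusted p is under 0.05, and red lines are medians. The medians of the immediate early genes (-0.79), the EGR and NR4A relatives (-0.73) and the tristetraprolin targets (-0.54) lie lowest of the 11.

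The genes whose values most resembled the members' mean profile over the 8 libraries were Ccn1, Btg2, Arc, Apold1, Mapk13 and Pkmyt1, in this order. The measure was the root-mean-square difference of centred log2 values, 0.20 for Ccn1 and 0.27 for Pkmyt1, among 12941 candidates with a mean CPM of at least 1 in each group, predicted genes, Riken clones and pseudogenes left out. Ccn1, an integrin-binding matrix protein gene of the early response, had log2 values of 12.80, 13.54, 12.78 and 11.70 in PBS and 12.05, 12.50, 12.42 and 11.91 in VEGF-C. Its fold change was -0.49 ± 0.31 (limma adjusted p = 0.314). Ccn1, Btg2 and Arc belong to the list of other early response genes. The match takes in the members' lower VEGF-C values, so lower VEGF-C values follow from the choice of these genes. Their fold changes are therefore no separate result. Mapk13 fell by 1.08 (limma adjusted p = 0.0162). Apold1, an early response gene of endothelial cells, had a log2 fold change of -0.71 (adjusted p = 0.174), and Pkmyt1, a kinase of the cell cycle, of -0.74 (0.0697).

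Other values moved with the groups, and their part in the members' values was not tested. The counts called are to be read against the 15.7% of all genes called. Neutrophil markers had negative fold changes in 8 of 8 (2 called, Csf3r and Mmp9), and their summed level was 17144 to 43330 normalized counts in PBS and 10834 to 32984 in VEGF-C. That sum was 32097 in PBS replicate 2 and 26003 in PBS replicate 4, which both lay within the overlap of the groups. B cell markers were called in 4 of 6, all lower (sums 2688 to 4542 and 706 to 1847). That sum was 4542 in PBS replicate 4, where the members were low, and 4487 in PBS replicate 2, where most members were highest. Macrophage markers (0 of 8 called, sums 74300 to 87720 and 71718 to 87070) and T cell markers (0 of 8, 2807 to 3857 and 2818 to 3821) overlapped. With library totals 2 of 8 were called in each of these lists, all lower, where 20.3% of all genes were called, most of them lower. Vascular endothelial markers had 2 of 8 called, Egfl7 lower and Vwf higher, fibroblast markers 1 of 8 and platelet markers 2 of 5, both higher. Smooth muscle and pericyte markers (0 of 8), cardiomyocyte markers (0 of 8) and red cell markers (0 of 5) had no call in limma. At an unadjusted limma p under 0.05 there were 2 of 8 macrophage, 2 of 8 T cell and 0 of 8 smooth muscle and pericyte markers. There were also 2 of 8 cardiomyocyte and 3 of 5 red cell markers, against 32.3% of all genes at that threshold. The number of neutrophil markers called was 4 without PBS replicate 1 and 1 in each fit lacking PBS replicate 3 or a VEGF-C library, and 2 T cell markers were called without VEGF-C replicate 1. Without PBS replicate 4, 1 smooth muscle and pericyte marker and 1 cardiomyocyte marker were called. The number of red cell markers called was 3 without PBS replicate 4, that of platelet markers 0 without VEGF-C replicate 3, and that of B cell markers 2 without VEGF-C replicate 3 and 6 without VEGF-C replicate 2. Of the nuclear-retained noncoding RNAs 7 of 7 were lower, with sums of 94979 to 117194 in PBS and 26843 to 30247 in VEGF-C; PBS replicate 4 (94979) lay with the other PBS hearts in this sum. No marker listed was at 0 reads in all libraries. Depth was 61713842 to 76803952 reads in PBS and 53679737 to 65230480 in VEGF-C.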

How the data were processed

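RNA from 8 mouse hearts was sequenced, with 4 libraries per group taken from the treatment label. Per the submitters' processing notes, reads were handled on GRCm39 with Trim Galore 0.6.10 and STAR 2.7.10a, then with featureCounts (Subread 2.0.1) and DESeq2 1.38.3. The labels' protocols name a stranded mRNA kit. The annotation release, the counting's strand option and any low-count filter are not stated there or in the labels. Expression values the authors deposited are on a log2 scale and equal log2(x + 4), where x is reads over a library's size factor. Of the values, 100% came out as whole reads, with a tolerance of 0.01 reads. Such a scale understates changes of genes with few reads. The authors' own log2 fold changes and adjusted p-values are in the same deposited table. The columns are numbered within each group; these numbers serve as replicate numbers here, and which animal each one is was not known.

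limma 3.58.1 (R 4.3.3) was fitted to the log2 values of 18835 genes, with 1 factor for treatment, 6 residual degrees of freedom and a variance trend; p-values are two-sided, with Benjamini-Hochberg adjustment over all genes and a threshold of 0.05. The fit was also run on simulated data, drawn with the same spread setting for all genes and both groups. That simulation did not cover genes with unequal spread between groups, such as the members. Merged exon lengths came from GENCODE M21, which matched 98.1% of genes. The 10 members and 21 other gene lists were chosen with earlier results of these data known. Named were the members, up to 4 called genes per related list with the smallest p, the relatives of the pairs and the 6 genes closest in profile; others are said to be chosen afterwards, and 1 gene that the rule names is not reported here. Values of overlapping and antisense genes are uncertain for lack of that strand option.

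Alternatives were other scalings, added constants of 1 and 16, a filter on low values (a CPM of at least 1 in at least 4 libraries), limma-voom, other variance models and leaving out each library.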

Additional observations from a re-analysis of the deposited data

Results flagged for a closer look

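Of 62 groups of 4 values examined for a library far from the other 3, 3 stood out, where chance flags about 1 group in 20. The log2 value of Dusp1 was 12.76 in VEGF-C replicate 4, against 13.01 to 13.06 in the other VEGF-C libraries. Fosl2 was 12.80 in PBS replicate 1, against 12.38 to 12.45 in the other PBS libraries. Atf4 was 12.96 in VEGF-C replicate 2, against 12.79 to 12.80 in the other VEGF-C libraries.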

How the results depend on the processing

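The negative sign of the fold change was kept in all 18 alternatives for 9 of the 10 immediate early genes, and for Dusp1 in all but 1: without PBS replicate 2 it was 0.11. Of the 2 calls, that of Junb was kept in 18 and that of Nr4a1 in 12. The number of members called was 5 with scaling by library totals (Fos, Jun, Junb, Ier2 and Nr4a1), where 20.3% of all genes were called. It was 1 with robust variances (15.9% of all genes) and 1 without a variance trend (12.3%). It was 2 in the other planned settings (14.4% to 17.7%) and 1 to 7 when 1 library was left out (8.94% to 15.4%). Over all genes, the number called was 1684 to 2906 when 1 library was left out. Scaling by library totals gave 243 genes higher and 3572 lower, against 1328 and 1621; upper-quartile factors gave 797 higher and 1920 lower, and a fit without a variance trend 797 higher. With 1 library left out there were 591 to 1268 higher, the lowest of them without VEGF-C replicate 3. With 1 library left out Dusp1 ranged from -0.31 to 0.11, Dusp6 from -0.055 to 0.081, and Dusp1 minus Dusp6 from -0.30 to 0.025, the highest of each without PBS replicate 2. Dusp6 was -0.0036 in the reported fit, 0.0038 with voom quality weights and 0.055 without VEGF-C replicate 4. The cause of these changes was not tested. No paired analysis was possible because no animal number occurs in both groups and no label links a column number to an animal. Members had at least 40 reads in each library; whether depth or the number of animals limits their calls was not tested.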
